A study of Mus musculus with 8 samples.

Results

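The genes described here encode the receptors through which serotonin, noradrenaline, acetylcholine, dopamine and histamine act on cells of the mouse primary visual cortex (V1). They were chosen by name alone, as every gene of the expression table that belongs to the Htr, Adra, Adrb, Chrm, Chrn alpha and beta, Drd or Hrh families, which gave 50 genes of 26711. The 50 genes comprise 14 serotonin, 9 adrenergic, 5 muscarinic, 13 nicotinic, 5 dopamine and 4 histamine receptor genes.

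Expression was measured by single-nucleus RNA-seq of V1 at postnatal day 21 (P21) in 8 libraries, with 2 libraries in each of 4 groups. Every animal, controls included, carried loxP-flanked alleles of Nr3c1, the glucocorticoid receptor gene (GRfl/fl). At birth each was injected with an AAV2/5 vector in which the astrocyte promoter GfaABC1D drove Cre (GR-KO) or the inactive ΔCre (GR-Con). Each genotype was raised either with normal rearing (NR) or with dark rearing (DR), and the library names give 1 male and 1 female library in each of the 4 groups. The vector also carried a membrane-bound GFP, and nuclei had been sorted by the DNA dye DRAQ5 and, per the study's methods, for absence of GFP signal. Each library is labelled as an animal, and p-values measure only the spread between these libraries.

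These receptors carry the signals of diffusely projecting neurons of the brainstem, basal forebrain and hypothalamus, which set arousal and attention and are known to gate plasticity in V1. All of them are G protein-coupled receptors except the nicotinic receptors and the serotonin receptor encoded by Htr3a and Htr3b, which are ion channels. Receptors coupled to Gq activate phospholipase C, those coupled to Gs raise cyclic AMP and those coupled to Gi lower it, so the same transmitter can excite, inhibit or modulate a cell depending on which receptor the cell makes.

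The libraries held 9517 to 15161 nuclei and 168632129 to 288774016 unique molecular identifiers (UMIs), with a median of 14861 to 29223 UMIs per nucleus, and 1220 of the 101098 different barcodes occurred in 2 or more libraries. The male and female medians were 22827.5 and 29223 in NR GR-KO and 14928.5 and 14861 in DR GR-KO. They were 17759.5 and 15884 in NR GR-Con and 16968 and 20161 in DR GR-Con. Depth thus went with group, most of all between the rearings of GR-KO, and its part in the calls was not tested. The level of a gene is given as CPM, the UMIs of the gene per 1000000 UMIs of all genes in that library and deposited cell type, with libraries of a group always listed male first and female second. Of 64 cell type markers in the table, 55 were highest in the type that they mark. None of the 3 markers of L4 (Rorb and Rspo1, highest in Astro, and Whrn, highest in microglia) or of the 2 of L6IT (Osr1, highest in VLMC, and Sulf1, highest in L6b) was. Among the 8 excitatory types alone, the 3 L4 markers and Osr1 were highest in the type that they mark, and Sulf1 was at 57.0 CPM in L6IT against 281 in L6b. The 15 cell types with at least 10 nuclei in every library were 8 excitatory types (L2/3, L4, L5IT, L5PT, L5NP, L6IT, L6CT and L6b, where IT, PT, NP and CT stand for intratelencephalic, pyramidal tract, near-projecting and corticothalamic), 4 inhibitory types (Pvalb, Sst, Vip and Lamp5) and 3 glial types (Astro, OPC and Oligo). Nr3c1 in Astro was at 231 and 221 CPM in NR GR-Con, 284 and 268 in NR GR-KO, 263 and 207 in DR GR-Con and 274 and 275 in DR GR-KO, and was thus not lower in the libraries labelled GR-KO. The EGFP transcript of the vector was counted in Astro at 13.1 and 9.56 CPM in NR GR-Con, 22.8 and 8.63 in NR GR-KO, 9.84 and 19.3 in DR GR-Con and 23.4 and 12.2 in DR GR-KO, with overlapping genotypes. In L2/3 neurons EGFP was at 0.139 and 0.118 CPM in NR GR-Con and 0.992 and 0.274 in NR GR-KO. It was at 0.0753 and 0.123 in DR GR-Con and 0.455 and 0.428 in DR GR-KO there. All GR-KO libraries were thus above all GR-Con libraries in L2/3, and the part of this in the L2/3 genotype calls was not tested. What share of the transduced astrocytes the sort kept is not known, which bears on every Astro value of GR-KO. Counts from the 3′ ends of transcripts do not check the deletion, and the groups are named by their labels throughout. Some libraries stood apart. Microglia numbered 2 to 4 nuclei in the NR GR-Con male, NR GR-KO male and DR GR-Con female libraries and 573 to 948 in the others, the NR GR-KO female library held only 59 L5PT and 58 L6b nuclei, and the NR GR-KO male library was the highest or lowest of its rearing for several receptors named below.

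Of the 50 receptor genes, 24 reached a mean of 5 CPM in at least 1 of the 15 cell types. The highest level was in an excitatory type for 11 genes, in an inhibitory type for 11 and in Astro for 2. Vip and Lamp5 interneurons were the leading type of 5 genes each, L5NP of 4, L6b of 3 and L5PT of 2. For 6 of the 24 genes (25.0%) all 8 libraries of the leading type were above all 8 libraries of the next type, against 27.4% of all genes that reached the same level. The deposited cell types were clustered on these same counts, so the levels are a description, with no test.

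**Figure D1:**
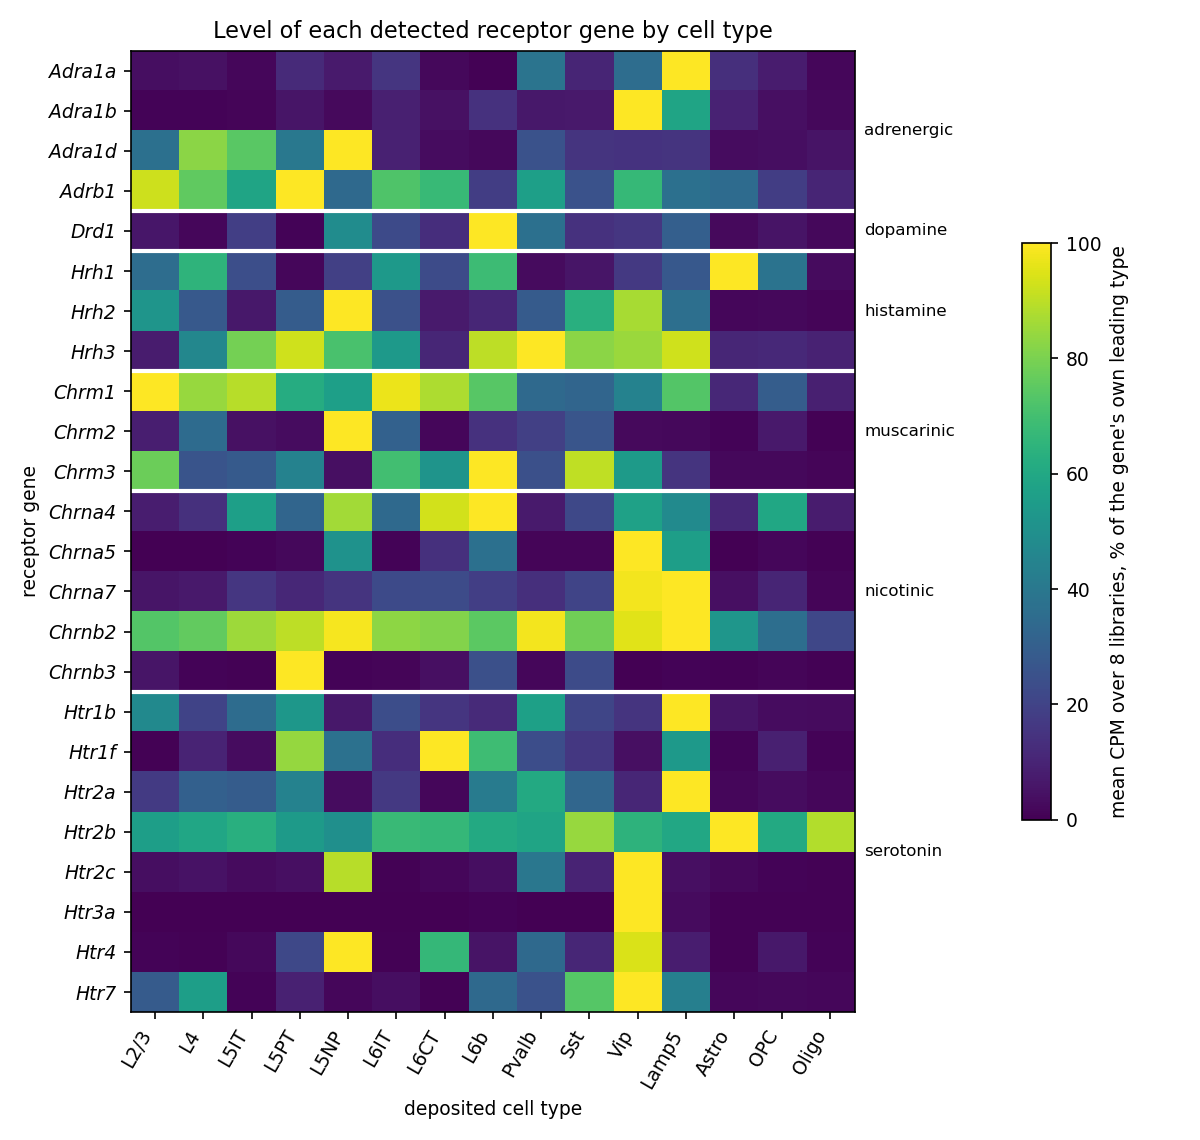
Mean level of the 24 detected receptor genes (rows, grouped by transmitter family) in the 15 cell types with at least 10 nuclei in every library (columns), as a percentage of the gene's own highest cell type, so that rows cannot be compared in absolute level. Htr3a is bright in Vip alone, Chrnb3 in L5PT and Adra1a in Lamp5, whereas Chrnb2 and Htr2b are spread over nearly all types.

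Among the serotonin receptors, Htr1f, which encodes a Gi-coupled receptor, was highest in L6CT at 714 ± 72.8 CPM (SD, n = 8), with 568 at the lowest, 726 at the median and 823 CPM at the highest over the libraries. It followed at 600.5 ± 129.7 in L5PT, where the libraries overlapped with those of L6CT, and was lowest in L2/3 at 3.44 ± 1.08. Htr2c, a Gq-coupled receptor, was highest in Vip at 197 ± 55.9 CPM (SD, n = 8), with 119 at the lowest, 186 at the median and 279 CPM at the highest, and the range of L5NP overlapped it at 176 ± 85.3. In L6IT its mean was 0.871. The Gs-coupled receptor gene Htr4 was shared between L5NP, at 126 ± 41.8 CPM (SD, n = 8), and Vip, at 119 ± 15.7, with L6CT next among the excitatory types at 83.7 ± 27.01. The 8 libraries of L5NP gave 72.6 at the lowest, 121 at the median and 198 CPM at the highest, and L6IT had the lowest mean, 0.586.

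Htr3a, the obligatory subunit of the serotonin-gated channel and a familiar marker of a class of interneurons, was separated from every other type in Vip, with 30.02 ± 5.24 CPM against 0.934 in Lamp5, a 32.1-fold ratio of means. Htr2a, the Gq-coupled receptor on which psychedelic drugs act, was also separated, at 92.5 ± 11.2 in Lamp5 and 56.2 ± 8.44 in Pvalb. Htr7, coupled to Gs, led in Vip at 43.6 ± 7.98, and Htr1b, a Gi-coupled receptor found on axon terminals, led in Lamp5 at 8.33 ± 1.70. The Gq-coupled Htr2b was near flat, from 2.57 in L5NP to 5.16 in Astro, and was the gene just inside the limit. Htr1a, Htr1d, Htr3b, Htr5a, Htr5b and Htr6 stayed under it, with 2701, 408, 35, 5797, 1080 and 3020 UMIs summed over all types and libraries.

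The noradrenaline receptors differed in place. Adra1a, a Gq-coupled receptor, was separated in Lamp5 at 687 ± 60.2 CPM (SD, n = 8), with 605 at the lowest, 694 at the median and 784 CPM at the highest, against 265 ± 36.7 in Pvalb and 92.5 ± 15.2 in Astro. Adra1b, of the same coupling, led in Vip at 166 ± 22.7 CPM (SD, n = 8), with 126 at the lowest, 168 at the median and 196 CPM at the highest, and its mean was 97.5 ± 22.9 in Lamp5 and 10.6 ± 3.66 in Pvalb. Adrb1, which encodes the Gs-coupled beta receptor of cortical neurons, was broad, at 42.4 ± 5.85 CPM (SD, n = 8) in L5PT and 39.2 ± 8.95 in L2/3, and its 8 libraries in L5PT gave 33.2 at the lowest, 44.6 at the median and 49.2 CPM at the highest. Adra1d led in L5NP at 8.55 ± 1.51. The Gi-coupled Adra2a, Adra2b and Adra2c stayed under the limit with 2129, 12 and 1130 UMIs, as did Adrb3 with 2091.

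For acetylcholine, the Gq-coupled receptor gene Chrm3 was the only one with a mean of 5 CPM or more in all 15 types, although in Astro, OPC and Oligo its level stood beside the neuronal RNA described below, whose part was not tested. It led in L6b at 1879 ± 317 CPM (SD, n = 8), with 1550.0 at the lowest, 1822 at the median and 2545 CPM at the highest, followed by Sst at 1698 ± 196, and was lowest in Oligo at 27.3 ± 15.1. Chrm2, a Gi-coupled receptor, was separated in L5NP at 453 ± 89.6 CPM (SD, n = 8), with 335 at the lowest, 452 at the median and 605 CPM at the highest, against 158 ± 30.2 in L4. Chrm1, coupled to Gq, ranged over the excitatory types from 20.6 ± 3.56 in L5NP and led in L2/3 at 36.5 ± 1.88 CPM (SD, n = 8), with 33.7 at the lowest, 36.1 at the median and 39.01 CPM at the highest and L6IT overlapping at 35.5 ± 1.81. Chrm4 and Chrm5 stayed under the limit with 714 and 16 UMIs.

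Of the nicotinic subunits, Chrna7, which forms a calcium-permeable channel on its own, was shared between Lamp5, at 280.2 ± 70.1 CPM (SD, n = 8), and Vip, at 275 ± 57.1, and its libraries in Lamp5 gave 167 at the lowest, 314 at the median and 338 CPM at the highest. Chrna5, an accessory subunit, led in Vip at 21.005 ± 3.83 CPM (SD, n = 8), with 15.9 at the lowest, 22.1 at the median and 26.7 CPM at the highest. Chrna4, which pairs with Chrnb2 in the common heteromeric receptor of the cortex, led in L6b at 14.8 ± 1.71 CPM (SD, n = 8), with 12.8 at the lowest, 14.8 at the median and 17.4 CPM at the highest, and the libraries of L6CT overlapped at 13.8 ± 1.39. Chrnb2 itself was spread over 12 types and was highest in Lamp5, at 8.50 ± 1.30. The accessory subunit Chrnb3 was separated in L5PT, with 7.97 ± 1.90 CPM against 1.94 ± 1.08 in L6b. Chrna1, Chrna2, Chrna3, Chrna6, Chrna9, Chrna10, Chrnb1 and Chrnb4 stayed under the limit, with 19 UMIs in all for Chrnb4 and 935 for Chrnb1.

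The dopamine receptors were sparse. Only Drd1, a Gs-coupled receptor, reached the limit, at 17.7 ± 2.10 CPM (SD, n = 8) in L6b with 13.7 at the lowest, 18.4 at the median and 20.3 CPM at the highest, and it was separated from L5NP, at 8.63 ± 1.03. Drd2, the main Gi-coupled dopamine receptor, was just outside it, at 4.95 ± 1.15 in Sst and 4.86 ± 2.02 in Lamp5. Drd3 had 177 UMIs in all and its highest mean, 1.74 ± 1.00 CPM, in Astro. Drd4 had 119 UMIs and Drd5 had 114.

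Hrh1, a histamine receptor coupled to Gq, was highest in Astro at 122 ± 16.2 CPM (SD, n = 8), with 107 at the lowest, 114 at the median and 151 CPM at the highest, followed by L6b at 84.1 ± 30.5, with overlapping libraries, and was lowest in L5PT at 2.19. Hrh2, coupled to Gs, led in L5NP at 84.8 ± 11.7 CPM (SD, n = 8), with 63.1 at the lowest, 88.6 at the median and 99.2 CPM at the highest, and overlapped with Vip at 73.8 ± 7.71. Hrh3, the Gi-coupled receptor that limits transmitter release, was spread over 9 types and led in Pvalb at 9.72 ± 1.93 CPM (SD, n = 8), with 6.63 at the lowest, 9.54 at the median and 11.95 CPM at the highest. Hrh4, known from immune cells, had 44 UMIs in all.

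Over both genotypes, Adrb1 was called lower in the dark in 4 neuronal types, and Hrh2 and Htr2a in 2 types each. Htr4 and Hrh1 were called higher in 3 types each. For Htr4, 1 of these types (L6IT) is given as values only, and Hrh1 was called in 0 types within GR-Con. Dark rearing was compared with normal rearing first over both genotypes, 4 libraries against 4, and then within each genotype, 2 against 2. A pair is 1 receptor gene in 1 cell type, tested with edgeR's likelihood ratio test on summed UMI counts and called at an adjusted p under 0.05 over all genes of the type. Of the 50 genes, 39 passed the filter on low counts in at least 1 type over both genotypes. In all, 28 of 351 pairs were called (7.98%), 14 higher and 14 lower in DR, from 17 genes, against 5.40% of all pairs of gene and cell type. The edgeR quasi-likelihood test called 14. In GR-Con 30 of 348 pairs were called (8.62% against 2.25% of all), 20 higher and 10 lower, and the quasi-likelihood test called 8. In GR-KO 33 of 356 pairs were called (9.27% against 3.66% of all), 16 higher and 17 lower, and the quasi-likelihood test called 9. The median log2 difference over the receptor pairs was -0.002 over both genotypes, against -0.005 over all genes tested. Since a sum per type was compared, less RNA of a gene per nucleus and fewer nuclei expressing it cannot be told apart. Within a genotype the rearings did not overlap in any called pair, so lack of overlap there adds no support. With 4 libraries against 4, most called pairs did not overlap either, for rearing and for genotype. Lack of overlap is thus only a description there too, and its share over all genes was not counted. A low gene can enter a test through the group where it is high, and must then differ. In 3 of the 30 pairs called in GR-Con (Drd2 in L2/3, Htr4 in L5IT and Adra1b in L5IT) and 4 of the 33 called in GR-KO (Chrna3 in L4, Chrnb3 in L2/3, and Hrh1 and Adrb1 in VLMC), no library of the lower group reached the filter. In GR-Con, 1 of the 2 lower libraries reached it for Chrnb3 in L2/3 and Drd2 in L6IT. In GR-KO the same held for Htr7 in L6IT, Htr1f in endothelial cells and Adrb1 in OPC. Over both genotypes, 1 of the 4 lower libraries reached it for Chrnb3 in L2/3 and Htr4 in L6IT. In these fits too, the higher group alone met the filter. All these pairs are given as values only, with no test, though they stay in the counts.

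**Figure D2:**
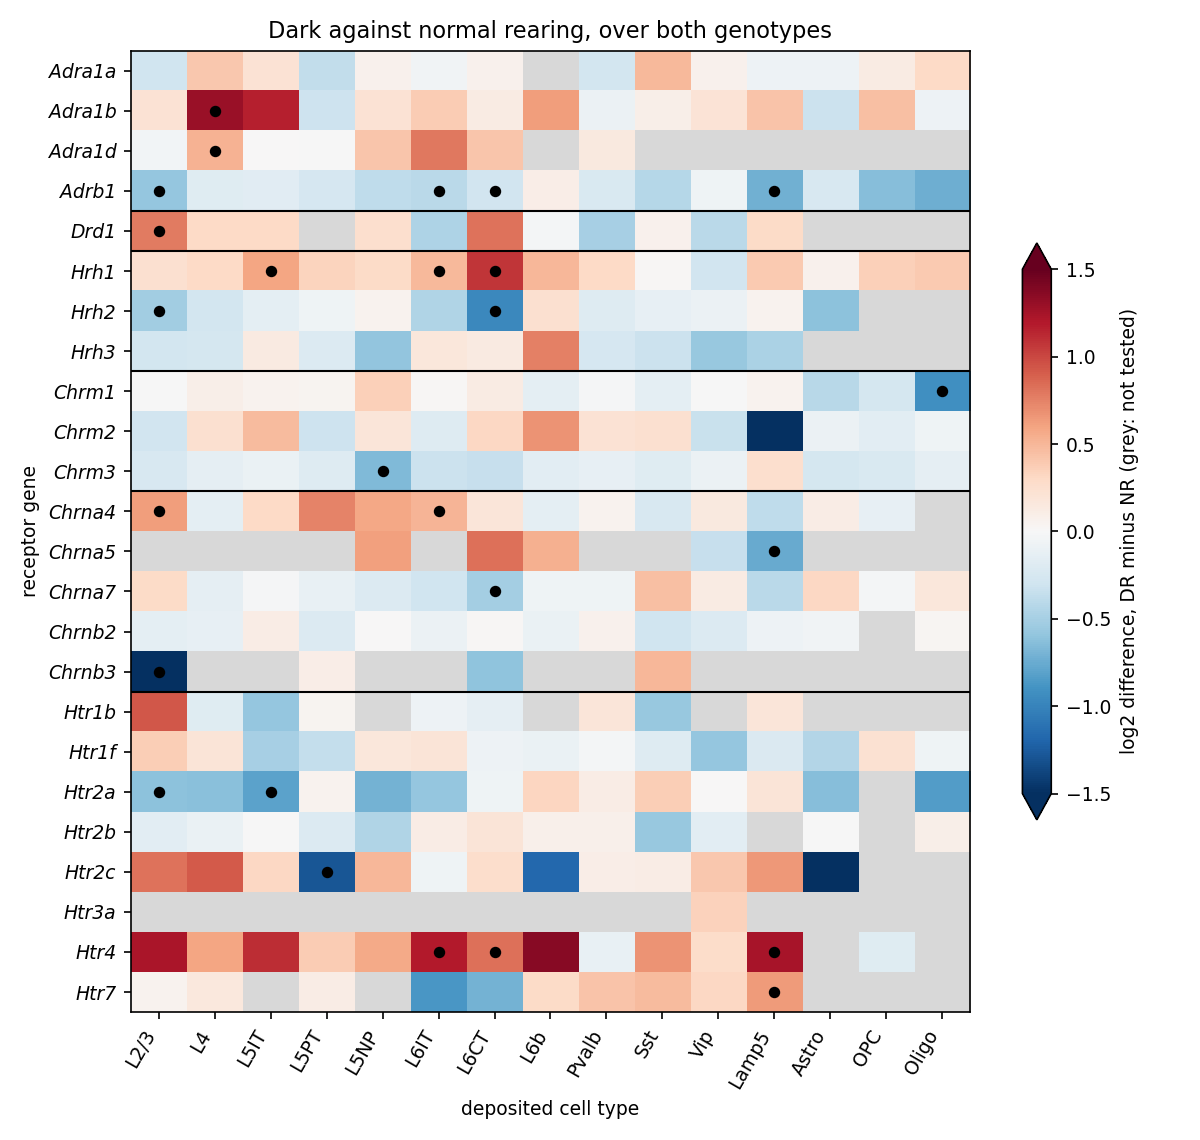
Log2 difference between dark and normal rearing over both genotypes (colour, red higher in DR and blue lower, saturated at 1.5) for the 24 detected receptor genes (rows) in 15 cell types (columns), with a black dot where the adjusted p was under 0.05 and grey where the gene did not pass the filter on low counts. Adrb1 is dotted in 4 blue cells, Hrh1 in 3 red cells and Htr4 in 3 red cells. Chrm1, Chrm3 and Htr2a have dots in blue cells only.

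The comparisons within GR-Con and within GR-KO share no library. Of the 30 pairs called in GR-Con, all were tested in GR-KO, 21 (70.0%) had the same sign there and 3 were called with that sign, against 81.4% and 22.9% over all genes called in GR-Con. The 3 pairs were Htr4 in L6CT, Adrb1 in L2/3 and Chrnb3 in L2/3. For Chrnb3 the NR libraries alone met the filter in both genotypes. Thus only Htr4 in L6CT and Adrb1 in L2/3 remain as tested pairs called in both. A further pair, Chrm3 in Oligo, was called in both with opposite signs.

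Htr4 rose in the dark in L6CT, the neurons that project back to the thalamus. Its level there was 53.9 and 59.8 CPM in NR GR-Con, 65.7 and 62.3 in NR GR-KO, 95.3 and 93.02 in DR GR-Con and 124 and 115 in DR GR-KO, and every DR library was above every NR library. The log2 difference was 0.83 (SE 0.09, adjusted p = 1.03e-15) over both genotypes, 0.73 (SE 0.17, adjusted p = 0.00115) in GR-Con and 0.92 (SE 0.14, adjusted p = 2.27e-08) in GR-KO. Over both genotypes the pair kept its call without any 1 library, and the quasi-likelihood adjusted p was 0.00199. Within GR-Con it lost its call without the NR GR-Con female library (adjusted p = 0.23) or the NR GR-Con male library (adjusted p = 0.603), and within GR-KO it kept its call without any 1 library. The GR-Con call also ended in the quasi-likelihood test (adjusted p = 0.122).

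Htr4 was also higher in DR in other types where its level was lower. In Lamp5 it was at 9.60 and 4.48 CPM in NR GR-Con, 4.58 and 4.74 in NR GR-KO, 15.9 and 21.5 in DR GR-Con and 7.84 and 10.6 in DR GR-KO. This gave a log2 difference of 1.23 (SE 0.26, adjusted p = 5.12e-04) over both genotypes and 1.39 (SE 0.35, adjusted p = 0.0218) in GR-Con. The DR GR-KO male library lay below the NR GR-Con male library there, so the rearings overlapped. In L6IT all libraries were near 1 CPM or below, with 3 to 12 UMIs in the NR libraries and 10 to 25 in the DR libraries. Only 1 of the 4 NR libraries reached the filter over both genotypes, so no test is given. In GR-Con alone the log2 difference was 1.85 (SE 0.40, adjusted p = 1.93e-04) in L2/3. Its L5IT level was 0.353 and 0.119 CPM in NR GR-Con, 10.9 and 0 in NR GR-KO, 3.04 and 3.90 in DR GR-Con and 3.34 and 1.03 in DR GR-KO, so the NR GR-KO male library was far above the other 7. Htr4 in L5IT had 1 to 3 UMIs in the NR GR-Con libraries and 40 to 57 in the DR GR-Con libraries, through which alone it passed the filter. In Sst the call was in GR-KO, 1.16 (SE 0.31, adjusted p = 0.0421), from 9.77 and 4.45 CPM in NR GR-KO to 17.7 and 15.6 in DR GR-KO. Htr4 in Lamp5 kept its call without any 1 library over both genotypes. It lost its call without the DR GR-Con female library (adjusted p = 0.403) or the NR GR-Con female library (adjusted p = 0.487) in GR-Con. Htr4 in L2/3 lost its call without the NR GR-Con male library (adjusted p = 0.117), and Htr4 in Sst lost its call without the DR GR-KO female library (adjusted p = 0.871) or the DR GR-KO male library (adjusted p = 0.992). The quasi-likelihood test ended the calls in L2/3 and Lamp5 of GR-Con (adjusted p = 0.0694 and 0.242) and in Sst of GR-KO (adjusted p = 0.354), and DESeq2 gave no adjusted p in Lamp5 or Sst.

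Adrb1, through which noradrenaline raises cyclic AMP, was called lower in the dark in 4 types over both genotypes. Its log2 difference was below 0 in 14 of the 15 types tested over both genotypes, 11 of 15 in GR-Con and 16 of 16 in GR-KO. The types come from the same libraries and are not independent, and Chrm3 was also below 0 in 14 of 15 types over both genotypes. In L2/3 it was at 49.7 and 44.6 CPM in NR GR-Con, 45.6 and 47.4 in NR GR-KO, 37.2 and 33.7 in DR GR-Con and 25.2 and 30.2 in DR GR-KO. All 4 DR libraries were below all 4 NR libraries, and the log2 difference was -0.58 (SE 0.11, adjusted p = 1.76e-05) over both genotypes, -0.46 (SE 0.15, adjusted p = 0.042) in GR-Con and -0.70 (SE 0.18, adjusted p = 0.00303) in GR-KO. In L6IT it was at 37.1 and 31.6 CPM in NR GR-Con, 38.3 and 32.7 in NR GR-KO, 29.2 and 24.1 in DR GR-Con and 27.1 and 25.5 in DR GR-KO. The fitted log2 difference was -0.40 (SE 0.11, adjusted p = 0.0119) over both genotypes. In L6CT it was at 32.3 and 27.97 CPM in NR GR-Con, 34.7 and 30.7 in NR GR-KO, 23.4 and 25.8 in DR GR-Con and 27.1 and 26.2 in DR GR-KO. On the log2 scale the difference was -0.29 (SE 0.09, adjusted p = 0.0258). In Lamp5 it was at 21.99 and 22.4 CPM in NR GR-Con, 14.8 and 19.6 in NR GR-KO, 14.02 and 7.86 in DR GR-Con and 12.9 and 11.1 in DR GR-KO. The test gave a log2 difference of -0.72 (SE 0.22, adjusted p = 0.0416). The rearings did not overlap in any of these 3 types either. Over both genotypes the call in L2/3 was kept without any 1 library. In L6IT it lost its call in 5 of the 8 fits without 1 library, with an adjusted p of up to 0.0949 without the NR GR-Con male library. In L6CT it lost its call in 5 of the 8 fits without 1 library, with an adjusted p of up to 0.181 without the NR GR-Con male library. In Lamp5 it lost its call in 6 of the 8 fits without 1 library, with an adjusted p of up to 0.22 without the DR GR-Con female library. Within GR-Con the L2/3 call was lost in 3 of the 4 fits without 1 library, with an adjusted p of up to 0.699 without the NR GR-Con male library, and within GR-KO it lost its call without the DR GR-KO male library (adjusted p = 0.338). In the quasi-likelihood test the calls in L6IT and Lamp5 ended (adjusted p = 0.0506 and 0.099), as did the L2/3 call within GR-Con (0.0868) and within GR-KO (0.0585), while L2/3 and L6CT over both genotypes held.

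The Adrb1 gene lies on the plus strand of chr19:56722199-56733113 (GRCm38, GENCODE annotation). Its promoter is shown because it was the receptor called lower in DR in the most types. The 200 bases that lie 250 to 51 bases before the RefSeq start, chr19:56721867-56722066 (GRCm38.p6), hold 1 match, in capitals, to TGACG, the core of the cyclic AMP response element, on either strand. They hold no match to AGAACA, the core of the glucocorticoid response element, or to the AP-1 site, which is written TGANTCA. Of 32817 such windows in RefSeq, 12.7% hold the first motif, 13.2% the second and 5.58% the third. A match is a description of these letters and not evidence of a bound factor.
Adrb1: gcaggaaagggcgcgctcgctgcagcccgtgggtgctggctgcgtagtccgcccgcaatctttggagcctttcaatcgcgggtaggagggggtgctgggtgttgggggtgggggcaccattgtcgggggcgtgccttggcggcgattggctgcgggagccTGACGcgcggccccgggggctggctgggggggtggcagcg

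Adrb1 was also called lower in DR in Oligo, in GR-KO. In Oligo it was at 4.41 and 2.95 CPM in NR GR-Con, 6.05 and 8.43 in NR GR-KO, 3.33 and 3.01 in DR GR-Con and 3.63 and 2.84 in DR GR-KO. Its log2 difference was -1.14 (SE 0.33, adjusted p = 0.0203) in GR-KO. In OPC it was at 6.21 and 6.88 CPM in NR GR-Con, 11.5 and 14.1 in NR GR-KO, 7.58 and 5.78 in DR GR-Con and 6.43 and 3.38 in DR GR-KO. Only 1 of the 2 DR GR-KO libraries reached the filter there, with 7 to 13 UMIs against 30 to 31 in NR GR-KO, so no test is given. In VLMC (vascular leptomeningeal cells) it was at 35.97 and 34.8 CPM in NR GR-KO and 22.5 and 10.01 in DR GR-KO. There it had only 3 to 5 UMIs in the DR GR-KO libraries and passed the filter through the NR GR-KO libraries alone. Neuronal markers were also lower in DR GR-KO than in NR GR-KO in these types. The summed level of 8 excitatory and pan-neuronal markers was 764 and 983 CPM in NR GR-KO against 428 and 455 in DR GR-KO in Oligo. It was 1631 and 1723 against 1094 and 1202 in OPC and 7101 and 8217 against 1849 and 2056 in VLMC, and its part in these differences was not tested. Adrb1 in Oligo lost its call in 3 of the 4 fits without 1 library, with an adjusted p of up to 0.446 without the DR GR-KO female library. The Oligo call did not hold in the quasi-likelihood test (adjusted p = 0.129) or in DESeq2 (adjusted p = 0.487).

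**Figure D3:**
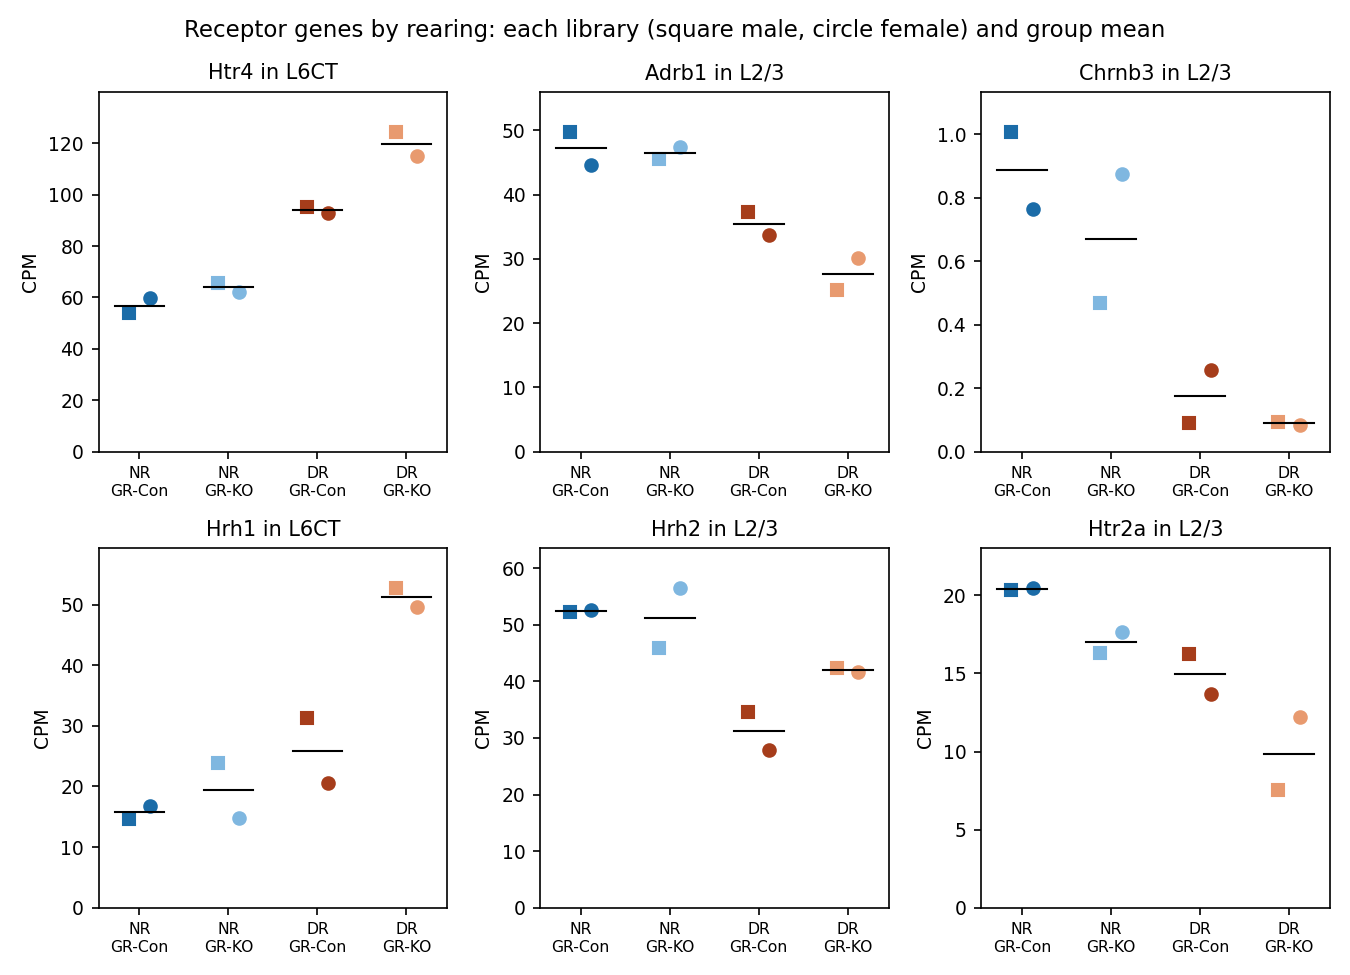
Level in CPM (vertical axis, from 0) of 6 receptor genes in 1 cell type each, with a point for every library (square male, circle female) and a bar at the mean of the 2 libraries of a group (horizontal axis). Htr4 in L6CT is higher in all 4 DR libraries, and Adrb1, Chrnb3, Hrh2 and Htr2a in L2/3 are lower in all 4, whereas Hrh1 in L6CT overlaps between the rearings. Chrnb3 is shown as values only, with no test.

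The histamine receptors Hrh1 and Hrh2 were called in opposite directions in the dark over both genotypes. Hrh1 in L6CT was at 14.7 and 16.7 CPM in NR GR-Con, 23.9 and 14.9 in NR GR-KO, 31.2 and 20.6 in DR GR-Con and 52.7 and 49.6 in DR GR-KO. The DR GR-KO libraries were the highest, the DR GR-Con female library lay below the NR GR-KO male library, and the log2 difference was 1.08 (SE 0.22, adjusted p = 7.72e-05) over both genotypes and 1.42 (SE 0.25, adjusted p = 2.93e-06) in GR-KO. In GR-Con it was 0.72 (SE 0.27, adjusted p = 0.158), which did not pass. In L5IT it was at 24.1 and 22.4 CPM in NR GR-Con, 26.4 and 20.9 in NR GR-KO, 32.1 and 27.2 in DR GR-Con and 38.1 and 45.7 in DR GR-KO, with no overlap between rearings, and the difference was 0.59 (SE 0.15, adjusted p = 0.00565) over both and 0.83 (SE 0.20, adjusted p = 0.00635) in GR-KO. In L6IT it was at 58.2 and 47.99 CPM in NR GR-Con, 63.2 and 48.4 in NR GR-KO, 69.8 and 54.2 in DR GR-Con and 94.8 and 92.4 in DR GR-KO. This gave a log2 difference of 0.49 (SE 0.16, adjusted p = 0.0415) over both and 0.76 (SE 0.16, adjusted p = 2.44e-04) in GR-KO, and here the DR GR-Con female library lay below NR libraries. Over both genotypes the L6CT and L5IT calls were kept without any 1 library, although the L5IT call was lost in the quasi-likelihood test (adjusted p = 0.0575). The L6IT call was lost in that test (adjusted p = 0.102), and it was lost in 6 of the 8 fits without 1 library, with an adjusted p of up to 0.218 without the DR GR-KO male library.

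Within GR-KO, Hrh1 was also called higher in DR in L2/3 and L4. In L2/3 it was at 39.2 and 51.3 CPM in NR GR-Con, 27.2 and 39.9 in NR GR-KO, 31.0 and 38.1 in DR GR-Con and 63.7 and 59.3 in DR GR-KO. The fitted log2 difference was 0.92 (SE 0.24, adjusted p = 0.00453) in GR-KO, while in GR-Con the same difference was -0.44 (SE 0.21, adjusted p = 0.227). In L4 it was at 70.6 and 81.4 CPM in NR GR-Con, 62.5 and 74.3 in NR GR-KO, 76.2 and 76.6 in DR GR-Con and 102 and 93.04 in DR GR-KO. On the log2 scale the difference was 0.58 (SE 0.15, adjusted p = 0.00469) in GR-KO and 0.02 (SE 0.15, adjusted p = 0.993) in GR-Con. In VLMC Hrh1 was at 80.2 and 32.1 CPM in NR GR-KO and at 4.51 and 23.4 in DR GR-KO, with 1 to 7 UMIs in the latter, beside the neuronal markers given above for VLMC. Within GR-KO none of the Hrh1 calls held in the quasi-likelihood test, where the adjusted p was 0.0614 in L6CT and between 0.0579 and 0.14 in the other types. By the likelihood ratio test the L6CT call was kept without any 1 library, while the calls in L6IT, L2/3, L4 and L5IT were each lost in 2 of the 4 fits without 1 library, with an adjusted p of up to 0.0722, 0.175 and 0.357 without the DR GR-KO male library in the first 3 and 0.575 without the DR GR-KO female library in L5IT.

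Hrh2 fell in L2/3 and L6CT. In L2/3 it was at 52.2 and 52.6 CPM in NR GR-Con, 45.9 and 56.5 in NR GR-KO, 34.6 and 27.9 in DR GR-Con and 42.4 and 41.7 in DR GR-KO. Its log2 difference was -0.52 (SE 0.15, adjusted p = 0.00813) over both genotypes and -0.79 (SE 0.18, adjusted p = 3.14e-04) in GR-Con, and all DR libraries were below all NR libraries. In L6CT it was at 8.33 and 9.81 CPM in NR GR-Con, 5.41 and 9.24 in NR GR-KO, 3.39 and 4.26 in DR GR-Con and 3.67 and 5.30 in DR GR-KO. In log2 units the difference was -0.96 (SE 0.23, adjusted p = 9.71e-04) over both and -1.24 (SE 0.23, adjusted p = 1.49e-05) in GR-Con, again without overlap. In L4 the call was in GR-Con, -0.62 (SE 0.17, adjusted p = 0.0154), from 29.4 and 22.9 CPM in NR GR-Con to 16.9 and 16.7 in DR GR-Con, whereas GR-KO gave 0.07 (SE 0.16, adjusted p = 0.894) there. Over both genotypes the L2/3 call was lost in 3 of the 8 fits without 1 library, with an adjusted p of up to 0.0604 without the NR GR-Con male library. The L6CT call was kept without any 1 library. In GR-Con the L2/3 call was lost without the NR GR-Con female library (adjusted p = 0.0682). The L6CT call was lost without the NR GR-Con female library (adjusted p = 0.131). The L4 call was lost in 3 of the 4 fits without 1 library, with an adjusted p of up to 0.724 without the NR GR-Con male library. The quasi-likelihood test ended the GR-Con calls in L6CT (adjusted p = 0.123) and L4 (adjusted p = 0.158) and kept the others.

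Htr2a was called lower in the dark in L2/3 and L5IT over both genotypes, and in L4 and L6IT in GR-KO alone. In L2/3 it was at 20.3 and 20.5 CPM in NR GR-Con, 16.3 and 17.7 in NR GR-KO, 16.2 and 13.7 in DR GR-Con and 7.55 and 12.2 in DR GR-KO, with no overlap between the rearings and a log2 difference of -0.61 (SE 0.17, adjusted p = 0.00356) over both genotypes. In L5IT it was at 38.95 and 36.04 CPM in NR GR-Con, 23.7 and 38.8 in NR GR-KO, 17.01 and 26.5 in DR GR-Con and 13.1 and 22.1 in DR GR-KO. The log2 difference was -0.81 (SE 0.22, adjusted p = 0.0128) over both, and the DR GR-Con female library lay above the NR GR-KO male library. In L4 it was at 34.7 and 26.9 CPM in NR GR-Con, 36.1 and 37.3 in NR GR-KO, 42.8 and 21.4 in DR GR-Con and 13.5 and 14.2 in DR GR-KO. Here the difference was -1.34 (SE 0.15, adjusted p = 3.49e-16) in GR-KO, where both DR libraries were below both NR libraries, and 0.08 (SE 0.34, adjusted p = 0.989) in GR-Con, where the DR libraries lay on either side of the NR libraries. In L6IT it was called in GR-KO, -1.11 (SE 0.28, adjusted p = 0.00421). Over both genotypes the L2/3 call was kept without any 1 library and the L5IT call was lost in 5 of the 8 fits without 1 library, with an adjusted p of up to 0.115 without the DR GR-KO male library. Within GR-KO the L4 call was kept without any 1 library, with a quasi-likelihood adjusted p of 0.0257, and the L6IT call was lost without the DR GR-KO male library (adjusted p = 0.129) or the DR GR-KO female library (adjusted p = 0.15). The L5IT call over both genotypes and the L6IT call in GR-KO ended in the quasi-likelihood test (adjusted p = 0.0853 and 0.107).

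Htr2c was called in GR-Con in 6 types, the most of any receptor in that genotype, and was higher in DR in 5 of them. It was called higher in 0 of 13 types over both genotypes and in 0 of 11 types in GR-KO. In Vip, its leading type, it was at 142 and 173 CPM in NR GR-Con, 244 and 119 in NR GR-KO, 279 and 248 in DR GR-Con and 198 and 174 in DR GR-KO. Both DR GR-Con libraries were above both NR GR-Con libraries, with a log2 difference of 0.75 (SE 0.15, adjusted p = 5.58e-04), and the GR-KO groups overlapped. In L5NP it was at 109 and 111 CPM in NR GR-Con, 295 and 85.2 in NR GR-KO, 279.7 and 159 in DR GR-Con and 250.4 and 119.5 in DR GR-KO. This gave a log2 difference of 1.00 (SE 0.23, adjusted p = 0.00345) in GR-Con. Its L2/3 level was 4.28 and 3.39 CPM in NR GR-Con, 11.1 and 2.36 in NR GR-KO, 9.18 and 7.44 in DR GR-Con and 11.2 and 7.91 in DR GR-KO. The fitted log2 difference was 1.07 (SE 0.22, adjusted p = 6.13e-05) in GR-Con. In each of these 3 types the NR GR-KO male library was more than 2 times the NR GR-KO female library, and none was called in GR-KO. In L4 it was at 7.55 and 2.75 CPM in NR GR-Con, 11.5 and 3.53 in NR GR-KO, 27.3 and 10.7 in DR GR-Con and 9.09 and 4.66 in DR GR-KO. On the log2 scale the difference was 1.91 (SE 0.60, adjusted p = 0.0433). In L5IT it was at 3.77 and 1.91 CPM in NR GR-Con, 13.8 and 2.12 in NR GR-KO, 9.34 and 6.63 in DR GR-Con and 7.93 and 0.770 in DR GR-KO. The test gave a log2 difference of 1.49 (SE 0.35, adjusted p = 9.99e-04). In L5PT Htr2c was lower in DR, at 11.8 and 8.13 CPM in NR GR-Con, 5.55 and 21.1 in NR GR-KO, 3.57 and 3.43 in DR GR-Con and 3.98 and 8.32 in DR GR-KO. Its log2 difference was -1.52 (SE 0.26, adjusted p = 2.69e-06) in GR-Con and -1.28 (SE 0.40, adjusted p = 0.0418) over both genotypes. Within GR-Con the Vip call was lost without the NR GR-Con male library (adjusted p = 0.201). The L5NP call was lost without the NR GR-Con female library (adjusted p = 0.0887). The L2/3 call was lost without the NR GR-Con female library (adjusted p = 0.0858). The L4 call was lost without the DR GR-Con male library (adjusted p = 0.297) or the NR GR-Con female library (adjusted p = 0.44). The L5IT call was lost without the NR GR-Con female library (adjusted p = 0.146). The L5PT call was kept without any 1 library. Over both genotypes the L5PT call was lost in 6 of the 8 fits without 1 library, with an adjusted p of up to 0.268 without the NR GR-KO female library. Of the GR-Con calls, the quasi-likelihood test ended those in L5NP (adjusted p = 0.0785), L4 (0.267) and L5IT (0.0683), and DESeq2 those in L5NP (adjusted p = 0.79) and L4 (0.434). The L5PT call over both genotypes also ended in the quasi-likelihood test (adjusted p = 0.202).

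Other serotonin receptors were called in fewer types. Htr1b in L2/3 rose in DR GR-Con, from 2.53 and 1.67 CPM in NR GR-Con to 7.28 and 5.02 in DR GR-Con, with a log2 difference of 1.50 (SE 0.31, adjusted p = 6.98e-05). It kept its call without any 1 library but lost it in the quasi-likelihood test (adjusted p = 0.064). Htr1f in L2/3 rose in GR-Con, with 1.14 (SE 0.23, adjusted p = 5.02e-05), though its level was under 5 CPM in every library. In GR-KO, Htr1f fell in L5IT, where it was at 26.95 and 23.5 CPM in NR GR-Con, 36.2 and 28.5 in NR GR-KO, 32.1 and 20.6 in DR GR-Con and 15.02 and 15.4 in DR GR-KO. In log2 units the difference was -1.09 (SE 0.20, adjusted p = 5.15e-05). It also fell in Astro in GR-KO, at 6.44 and 4.03 CPM in NR GR-Con, 10.2 and 11.5 in NR GR-KO, 4.92 and 9.59 in DR GR-Con and 2.93 and 5.15 in DR GR-KO. The log2 difference was -1.31 (SE 0.27, adjusted p = 2.62e-04), beside neuronal markers of 998 and 1042 CPM in Astro of NR GR-KO and 581 and 621 in DR GR-KO, whose part was not tested. In Endo (endothelial cells, 37 to 58 nuclei per GR-KO library) Htr1f was at 37.5 and 6.74 CPM in NR GR-KO and 98.9 and 147 in DR GR-KO. It had 3 to 25 UMIs in the NR GR-KO libraries and 26 to 30 in the DR GR-KO libraries. Only 1 of the 2 NR GR-KO libraries reached the filter, so no test is given. The neuronal markers in Endo summed to 7293 and 5781 CPM in NR GR-KO and 5239 and 7118 in DR GR-KO, with overlapping groups. Htr6, a Gs-coupled receptor at low level, rose in GR-KO in L6IT, from 2.73 and 2.27 CPM in NR GR-KO to 5.61 and 5.71 in DR GR-KO. The fitted log2 difference was 1.19 (SE 0.24, adjusted p = 1.28e-04). It also rose in GR-KO in L2/3, with 0.84 (SE 0.26, adjusted p = 0.0222), and in L6CT, with 0.80 (SE 0.26, adjusted p = 0.0329). Over both genotypes it rose in L2/3, with 0.65 (SE 0.19, adjusted p = 0.00839), and in L6IT, with 0.77 (SE 0.23, adjusted p = 0.0163). Htr7 in L6IT was at under 3 CPM in every library, with 48 to 52 UMIs in the NR GR-KO libraries and 6 to 9 in the DR GR-KO libraries. Only 1 of the 2 DR GR-KO libraries reached the filter, so no test is given. Htr7 rose in Lamp5 over both genotypes, with 0.64 (SE 0.19, adjusted p = 0.0326). Htr1f lost its call without the NR GR-Con female library (adjusted p = 0.0908) in L2/3 of GR-Con. It lost its call without the DR GR-KO female library (adjusted p = 0.0692) or the DR GR-KO male library (adjusted p = 0.19) in L5IT of GR-KO, and it lost its call without the DR GR-KO male library (adjusted p = 0.181) in Astro. Htr6 in GR-KO lost its call without the DR GR-KO female library (adjusted p = 0.0529) or the DR GR-KO male library (adjusted p = 0.0583) in L6IT. In L2/3 it lost its call in 4 of the 4 fits without 1 library, with an adjusted p of up to 0.621 without the DR GR-KO male library, and in L6CT in 3 of the 4 fits without 1 library, with an adjusted p of up to 0.564 without the DR GR-KO male library. Over both genotypes Htr6 lost its call without the NR GR-KO female library (adjusted p = 0.0621) or the DR GR-KO male library (adjusted p = 0.0897) in L2/3. In L6IT it lost its call in 5 of the 8 fits without 1 library, with an adjusted p of up to 0.123 without the DR GR-KO male library. Htr7 in Lamp5 lost its call in 6 of the 8 fits without 1 library, with an adjusted p of up to 0.172 without the NR GR-Con female library. The quasi-likelihood test ended the GR-KO calls of Htr1f in L5IT (adjusted p = 0.124) and of Htr6 in L6IT, L2/3 and L6CT (adjusted p = 0.0655, 0.0784 and 0.122). Over both genotypes it ended those of Htr6 in L6IT (adjusted p = 0.0794) and Htr7 in Lamp5 (adjusted p = 0.0892). DESeq2 ended the GR-KO call of Htr6 in L6CT (adjusted p = 0.22).

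Among the nicotinic subunits, Chrnb3 in L2/3 was at 1.01 and 0.765 CPM in NR GR-Con, 0.469 and 0.873 in NR GR-KO, 0.0904 and 0.258 in DR GR-Con and 0.0949 and 0.0856 in DR GR-KO. Every DR library was below every NR library at a level of at most about 1 CPM, which adds no support given the filter. Over both genotypes Chrnb3 had 5 to 21 UMIs in the DR libraries and 35 to 67 in the NR libraries. Only 1 of the 4 DR libraries reached the filter. In GR-Con it had 6 to 21 UMIs in the DR libraries and 39 to 65 in the NR libraries. In GR-KO it had 5 UMIs in each DR library and 35 to 67 in the NR libraries. In each comparison the NR libraries alone met the filter, so no test is given. Chrna7 fell in L6CT, at 95.8 and 78.8 CPM in NR GR-Con, 61.01 and 65.4 in NR GR-KO, 50.7 and 60.9 in DR GR-Con and 41.2 and 54.98 in DR GR-KO. On the log2 scale the difference was -0.51 (SE 0.14, adjusted p = 0.00458) over both, with no overlap between the rearings, and it kept its call without any 1 library. Chrna7 was called higher in DR in L2/3 of GR-Con, at 0.56 (SE 0.18, adjusted p = 0.0263). It was also called higher in DR in Sst of GR-KO, at 0.73 (SE 0.19, adjusted p = 0.0356). These calls in L2/3 and Sst ended in the quasi-likelihood test (adjusted p = 0.102 and 0.3275). Chrna4 rose in GR-KO in L5PT, at 3.73 and 3.83 CPM in NR GR-Con, 2.90 and 3.70 in NR GR-KO, 4.71 and 4.14 in DR GR-Con and 7.86 and 8.06 in DR GR-KO. The test gave a log2 difference of 1.41 (SE 0.28, adjusted p = 2.70e-04). Over both genotypes it rose in L6IT, with 0.50 (SE 0.16, adjusted p = 0.0315), and in L2/3, with 0.63 (SE 0.20, adjusted p = 0.0172). Chrna5 fell in Lamp5, with -0.76 (SE 0.23, adjusted p = 0.0366). Chrna3 in L4 was under 1.5 CPM in every library, with 39 to 59 UMIs in the NR GR-KO libraries, through which alone it passed the filter in GR-KO, and 5 to 6 in the DR GR-KO libraries. Chrna4 in L5PT lost its call in 3 of the 4 fits without 1 library, with an adjusted p of up to 0.214 without the DR GR-KO female library. In L6IT over both genotypes it lost its call in 5 of the 8 fits without 1 library, with an adjusted p of up to 0.248 without the DR GR-KO male library. In L2/3 it lost its call in 4 of the 8 fits without 1 library, with an adjusted p of up to 0.146 without the DR GR-KO male library. Chrna5 in Lamp5 lost its call in 6 of the 8 fits without 1 library, with an adjusted p of up to 0.166 without the NR GR-Con female library. In the quasi-likelihood test the calls of Chrna4 in L5PT (adjusted p = 0.249) and L6IT (0.078) and of Chrna5 (0.0939) ended. DESeq2 ended that of Chrna4 in L6IT (adjusted p = 0.0789) and gave no adjusted p for Chrna4 in L5PT or Chrna5.

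Of the muscarinic receptors, Chrm3 fell in the dark in L5NP, where it was at 94.02 and 106 CPM in NR GR-Con, 80.7 and 97.2 in NR GR-KO, 68.4 and 49.2 in DR GR-Con and 64.3 and 55.4 in DR GR-KO. No DR library reached the lowest NR library, and the log2 difference was -0.66 (SE 0.13, adjusted p = 2.12e-04) over both genotypes, where it kept its call without any 1 library. In GR-KO it fell in 4 non-neuronal types. In VLMC it was at 677 and 419 CPM in NR GR-Con, 869 and 558 in NR GR-KO, 166 (male library alone) in DR GR-Con and 63.1 and 76.8 in DR GR-KO. Its log2 difference was -3.57 (SE 0.42, adjusted p = 1.08e-14), and the neuronal markers summed to 7101 and 8217 CPM in NR GR-KO and 1849 and 2056 in DR GR-KO. In Oligo it was at 12.7 and 13.7 CPM in NR GR-Con, 41.7 and 55.8 in NR GR-KO, 21.3 and 32.5 in DR GR-Con and 18.2 and 22.3 in DR GR-KO. In log2 units the difference was -1.24 (SE 0.21, adjusted p = 1.44e-06) in GR-KO and 0.99 (SE 0.27, adjusted p = 0.0466), the opposite direction, in GR-Con. In Astro and OPC the differences in GR-KO were -1.12 (SE 0.21, adjusted p = 4.32e-05) and -1.04 (SE 0.20, adjusted p = 1.77e-04). The markers in Astro summed to 998 and 1042 CPM in NR GR-KO and 581 and 621 in DR GR-KO. Those in OPC summed to 1631 and 1723 CPM in NR GR-KO and 1094 and 1202 in DR GR-KO. The markers in Oligo summed to 445 and 389 CPM in NR GR-Con, 764 and 983 in NR GR-KO, 410.0 and 719 in DR GR-Con and 428 and 455 in DR GR-KO, and their group means moved in the same direction as those of Chrm3 in both genotypes. The part of the neuronal markers in the results of these 4 types was not tested. In GR-Con the Oligo call was lost in 3 of the 4 fits without 1 library, with an adjusted p of up to 1 without the NR GR-Con male library. Within GR-KO, Chrm3 kept its call without any 1 library in VLMC and Oligo, but without the DR GR-KO male library it lost its call in Astro (adjusted p = 0.0909) and in OPC (adjusted p = 0.149). Chrm1 in Oligo fell over both genotypes, with -0.92 (SE 0.24, adjusted p = 0.00831), from 3.86 to 4.62 CPM in NR to 1.69 to 2.66 in DR, and lost its call without the DR GR-KO female library (adjusted p = 0.0554). The Chrm1 call ended in the quasi-likelihood test (adjusted p = 0.0585) and in DESeq2 (0.166), as did the Chrm3 call in Oligo of GR-Con (adjusted p = 0.346 and 0.202).

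For the adrenergic receptors coupled to Gq, Adra1b rose in L4, where the level was under 3 CPM, with a log2 difference of 1.30 (SE 0.32, adjusted p = 0.00203) over both genotypes and 1.83 (SE 0.30, adjusted p = 3.80e-07) in GR-Con. In L5IT it had 4 to 5 UMIs in the NR GR-Con libraries and 30 to 56 in the DR GR-Con libraries, through which alone it passed the filter, and the NR GR-KO male library, at 3.67 CPM, was above the NR GR-Con libraries, at 0.471 and 0.597. The L4 call was kept without any 1 library over both genotypes and in GR-Con, but in GR-Con it was lost in the quasi-likelihood test (adjusted p = 0.0995). In GR-KO the differences were 0.77 (SE 0.42, adjusted p = 0.339) in L4 and -0.01 (SE 0.71, adjusted p = 0.999) in L5IT, and over both genotypes L5IT gave 1.16 (SE 0.66, adjusted p = 0.371), none of which passed. Drd2 in L2/3 was at 0.0310 and 0.0392 CPM in NR GR-Con, 0.885 and 0.0912 in NR GR-KO, 1.31 and 1.59 in DR GR-Con and 1.40 and 0.188 in DR GR-KO. It had 2 UMIs in each NR GR-Con library and passed the filter on low counts through the DR GR-Con libraries alone. In GR-KO its log2 difference was 0.76 (SE 1.17, adjusted p = 0.778), with the male libraries of both rearings above the female libraries. Over both genotypes 2 further pairs at low level were called, Adra1d in L4, with 0.52 (SE 0.17, adjusted p = 0.033), and Drd1 in L2/3, with 0.78 (SE 0.26, adjusted p = 0.021). Adra1d lost its call in 5 of the 8 fits without 1 library, with an adjusted p of up to 0.155 without the NR GR-KO female library, and Drd1 lost its call in 5 of the 8 fits without 1 library, with an adjusted p of up to 0.133 without the DR GR-KO male library. Both of these calls ended in the quasi-likelihood test (adjusted p = 0.0746 for Adra1d and 0.0575 for Drd1).

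The GR-KO and GR-Con libraries were compared over both rearings, 4 against 4, and within each rearing, 2 against 2. Over both rearings 2 of 351 pairs were called (0.570% against 0.395% of all pairs), Chrna7 in Astro and Adra1b in Pvalb, and the quasi-likelihood test called 1. In NR 11 of 365 pairs were called (3.01% against 0.804%), 10 higher and 1 lower in GR-KO, and the quasi-likelihood test called 3. In DR 9 of 344 pairs were called (2.62% against 0.513%), 8 higher and 1 lower. There the edgeR quasi-likelihood test called 0, with 63 pairs at an unadjusted p under 0.05 against 66 by the likelihood ratio test, and DESeq2 called 6. NR and DR share no library. Of the 11 pairs called in NR, 10 were tested in DR, and 3 had the same sign there (30.0%, against 57.4% over all genes called in NR).

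Chrna7 rose in Astro in GR-KO. It was at 4.93 and 7.92 CPM in NR GR-Con, 9.48 and 19.4 in NR GR-KO, 7.33 and 8.78 in DR GR-Con and 15.4 and 18.8 in DR GR-KO. All 4 GR-KO libraries were above all 4 GR-Con libraries, and the log2 difference was 1.12 (SE 0.25, adjusted p = 6.29e-04) over both rearings, 1.12 (SE 0.37, adjusted p = 0.0377) in NR and 1.12 (SE 0.28, adjusted p = 0.0144) in DR. Over both rearings it kept its call without any 1 library, with a quasi-likelihood adjusted p of 0.0352, while in NR it lost its call without the NR GR-Con male library (adjusted p = 0.427) or the NR GR-KO female library (adjusted p = 0.561) and in DR it lost its call without the DR GR-KO female library (adjusted p = 1) or the DR GR-KO male library (adjusted p = 1). The neuronal markers summed in Astro were 663 and 515 CPM in NR GR-Con, 998 and 1042 in NR GR-KO, 572 and 990.5 in DR GR-Con and 581 and 621 in DR GR-KO. They were higher in GR-KO in NR and overlapped between the genotypes in DR. These markers are excitatory and pan-neuronal, and Chrna7 was highest in the inhibitory types Lamp5 and Vip, followed by the excitatory type L6CT. The part of neuronal RNA in the Chrna7 call was not tested. Within each rearing the Chrna7 call ended in the quasi-likelihood test (adjusted p = 0.14 in NR and 0.329 in DR) and in DESeq2 (adjusted p = 0.0938 and 0.288).

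The Chrna7 gene lies on the minus strand of chr7:63098692-63212569 (GRCm38, GENCODE annotation). Its promoter is shown because Chrna7 rose in Astro in GR-KO. The 200 bases from 250 to 51 bases before the RefSeq start, chr7:63212577-63212776 (GRCm38.p6, minus strand), hold no match on either strand to any of the same 3 motifs, which says only that these letters are not in this window.
Chrna7: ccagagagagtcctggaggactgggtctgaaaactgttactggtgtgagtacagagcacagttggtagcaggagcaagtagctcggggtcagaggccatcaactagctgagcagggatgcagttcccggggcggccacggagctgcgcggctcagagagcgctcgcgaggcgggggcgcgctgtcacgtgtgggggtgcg

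Adra1b fell in Pvalb in GR-KO, at 15.7 and 13.3 CPM in NR GR-Con, 7.99 and 6.70 in NR GR-KO, 11.4 and 14.9 in DR GR-Con and 7.63 and 7.21 in DR GR-KO. All GR-KO libraries were below all GR-Con libraries in both rearings, with a log2 difference of -0.90 (SE 0.14, adjusted p = 2.36e-06) over both, -0.98 (SE 0.19, adjusted p = 5.49e-04) in NR and -0.81 (SE 0.22, adjusted p = 0.0602) in DR, where it did not pass. Over both rearings it kept its call without any 1 library, but the quasi-likelihood adjusted p was 0.13. In NR it lost its call without the NR GR-Con male library (adjusted p = 0.253), in the quasi-likelihood test (adjusted p = 0.322) and in DESeq2 (adjusted p = 1.00). Pvalb interneurons are the fast-spiking cells known to gate plasticity in V1. Vip, the leading type of Adra1b, gave 0.11 (SE 0.12, adjusted p = 0.999).

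**Figure D4:**
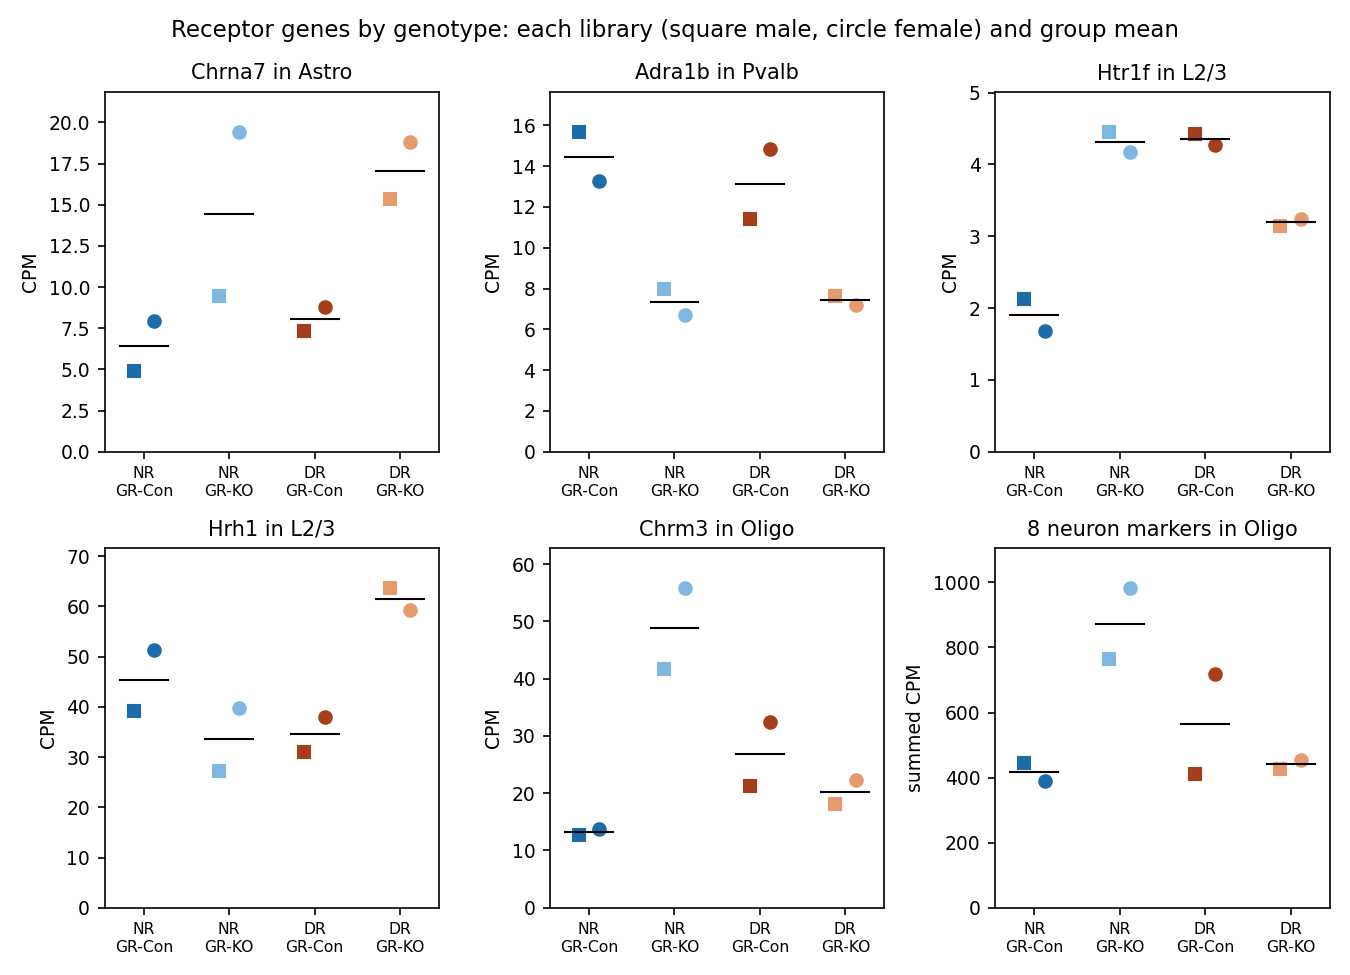
Level in CPM (vertical axis, from 0) of 5 receptor genes in 1 cell type each and, in the last panel, the summed CPM of 8 neuron markers in Oligo, with a point for every library (square male, circle female) and a bar at the mean of the 2 libraries of a group (horizontal axis). Chrna7 in Astro is higher and Adra1b in Pvalb lower in GR-KO in both rearings, and Chrm3 in Oligo and the neuron markers there are both highest in NR GR-KO.

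In NR, the calls of Chrm3 were in glia. Oligo, with the levels given above, had a log2 difference of 1.84 (SE 0.21, adjusted p = 6.94e-14) and kept the call without any 1 library. In OPC it was at 30.1 and 22.1 CPM in NR GR-Con, 49.96 and 68.3 in NR GR-KO, 30.8 and 48.03 in DR GR-Con and 23.8 and 31.4 in DR GR-KO. The log2 difference was 1.11 (SE 0.21, adjusted p = 1.52e-04). In Astro it was at 33.1 and 17.6 CPM in NR GR-Con, 46.7 and 69.2 in NR GR-KO, 27.95 and 49.4 in DR GR-Con and 21.97 and 28.7 in DR GR-KO. This gave a log2 difference of 1.13 (SE 0.29, adjusted p = 0.0026). Htr1f also rose in NR GR-KO in Oligo and Astro. In Oligo it was at 4.82 and 3.34 CPM in NR GR-Con, 8.25 and 8.65 in NR GR-KO, 3.18 and 10.3 in DR GR-Con and 2.42 and 7.09 in DR GR-KO. The fitted log2 difference was 0.97 (SE 0.27, adjusted p = 0.0262). In Astro, with the levels given above, it was 0.98 (SE 0.26, adjusted p = 0.004). The neuronal markers were higher in NR GR-KO than in NR GR-Con in all 3 types, at 764 and 983 against 445 and 389 CPM in Oligo, 1631 and 1723 against 1308 and 1122 in OPC and 998 and 1042 against 663 and 515 in Astro, and their part in these calls was not tested. The OPC call of Chrm3 was lost without the NR GR-KO female library (adjusted p = 0.063). The Astro call of Chrm3 was lost without the NR GR-Con female library (adjusted p = 0.0698). The Astro call of Htr1f was lost without the NR GR-KO female library (adjusted p = 0.0896) or the NR GR-Con female library (adjusted p = 0.218). The Oligo call of Htr1f was lost in 4 of the 4 fits without 1 library, with an adjusted p of up to 0.533 without the NR GR-Con female library. DESeq2 ended the Chrm3 calls in Astro (adjusted p = 0.303) and OPC (0.0829), which the quasi-likelihood test kept. The Htr1f calls ended in both tests, with a quasi-likelihood adjusted p of 0.0586 in Astro and 0.276 in Oligo and a DESeq2 adjusted p of 0.157 and 1.00.

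In neurons of NR mice, Htr1f rose in L2/3 of GR-KO, from 2.12 and 1.69 CPM in NR GR-Con to 4.45 and 4.17 in NR GR-KO, with a log2 difference of 1.14 (SE 0.23, adjusted p = 0.00103). Chrm2 rose in L5PT, from 12.4 and 7.81 CPM in NR GR-Con to 18.1 and 30.4 in NR GR-KO, with 1.23 (SE 0.34, adjusted p = 0.0265). The higher of the GR-KO libraries was the female library with 59 L5PT nuclei. Chrna3 in L4, at under 1.5 CPM, had 9 to 19 UMIs in the NR GR-Con libraries and 39 to 59 in the NR GR-KO libraries. Only 1 of the 2 NR GR-Con libraries reached the filter, so no test is given. Htr1f in L2/3 lost its call without the NR GR-Con male library (adjusted p = 0.196) or the NR GR-Con female library (adjusted p = 0.838). Chrm2 in L5PT lost its call in 3 of the 4 fits without 1 library, with an adjusted p of up to 1 without the NR GR-Con female library. Chrna9 in L5PT had 3 to 5 UMIs in the NR GR-Con libraries and 4 to 22 in the NR GR-KO libraries, through which alone it passed the filter. The calls of Htr1f and Chrm2 did not hold in the quasi-likelihood test (adjusted p = 0.612 and 0.404), and DESeq2 ended that of Chrm2 (adjusted p = 0.0866).

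In DR, the calls were led by Hrh1. With the levels given above, it was higher in GR-KO in L2/3, with a log2 difference of 0.89 (SE 0.17, adjusted p = 2.04e-04), and in L6CT, with 0.98 (SE 0.27, adjusted p = 0.0339). In L6b it was at 82.3 and 62.2 CPM in NR GR-Con, 86.4 and 40.5 in NR GR-KO, 79.9 and 66.2 in DR GR-Con and 129.7 and 126 in DR GR-KO. On the log2 scale the difference was 0.81 (SE 0.17, adjusted p = 0.00461). Both DR GR-KO libraries were above both DR GR-Con libraries in all 3 types. The genotypes did not overlap in any of the 9 DR calls, so this adds no support beyond the call. Hrh2 in L4 was at 16.9 and 16.7 CPM in DR GR-Con and 28.8 and 23.3 in DR GR-KO. The test gave a log2 difference of 0.66 (SE 0.16, adjusted p = 0.00801). Chrm2 in L6b was at 66.7 and 44.6 CPM in NR GR-Con, 75.8 and 7.54 in NR GR-KO, 57.3 and 52.3 in DR GR-Con and 85.6 and 129 in DR GR-KO. Its log2 difference was 0.98 (SE 0.22, adjusted p = 0.0102). Here the NR GR-KO female library, with 58 L6b nuclei, was far below the other 7. Htr2c in Sst was at 25.1 and 17.2 CPM in NR GR-Con, 26.4 and 4.21 in NR GR-KO, 11.3 and 14.5 in DR GR-Con and 19.8 and 38.1 in DR GR-KO. In log2 units the difference was 1.20 (SE 0.27, adjusted p = 0.00656). Chrna4 in L5PT gave 0.88 (SE 0.23, adjusted p = 0.042), and Htr2a in L4, the one receptor called lower in GR-KO, gave -1.18 (SE 0.34, adjusted p = 0.0423). None of these calls held in the quasi-likelihood test, where the adjusted p was 0.407 for Hrh1 in L2/3. DESeq2 ended that of Htr2a (adjusted p = 0.344) and gave no adjusted p for Chrna4 or Htr2c. Of the 9 DR calls, each was lost in at least 1 of the 4 fits without 1 library. The adjusted p reached 0.0744 for Hrh1 in L2/3 without the DR GR-KO male library, 0.378 for Hrh1 in L6b without the DR GR-KO female library, 0.673 for Hrh2 without the DR GR-KO male library, and 1 for Hrh1 in L6CT without the DR GR-KO male library. Without the DR GR-KO female library it reached 0.86 for Chrm2, 1 for Htr2c, 0.7 for Chrna4 and 0.696 for Htr2a.

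The difference between the genotype effects in NR and in DR was tested as an interaction over all 8 libraries, with the sign of the NR effect minus the DR effect. Of 364 pairs 4 were called (1.10% against 0.181% of all pairs). They were Chrm3 in Oligo, at 2.23 (SE 0.36, adjusted p = 1.34e-06), Chrm3 in OPC, at 1.64 (SE 0.36, adjusted p = 0.00981), Htr1f in L2/3, at 1.53 (SE 0.28, adjusted p = 8.88e-05), and Hrh1 in L2/3, at -1.35 (SE 0.34, adjusted p = 0.0388). Hrh1 in L2/3 was lower in GR-KO in NR, at -0.46 (SE 0.26, adjusted p = 1), which did not pass, and higher in GR-KO in DR. Htr1f in L2/3 was at 2.12 and 1.69 CPM in NR GR-Con, 4.45 and 4.17 in NR GR-KO, 4.43 and 4.27 in DR GR-Con and 3.15 and 3.24 in DR GR-KO, so that the lowest libraries were those of NR GR-Con. The quasi-likelihood test called 0 of these pairs, with 51 at an unadjusted p under 0.05 against 50 by the likelihood ratio test, and DESeq2 called 5. Chrm3 in OPC lost its call in 4 of the 8 fits without 1 library, with an adjusted p of up to 0.539 without the DR GR-KO male library, and Hrh1 lost its call in 5 of the 8 fits without 1 library, with an adjusted p of up to 0.444 without the NR GR-Con female library, while the others kept their calls without any 1 library. DESeq2 ended the call of Chrm3 in OPC (adjusted p = 0.584).

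Genes that act with these receptors were counted in the same fits, as pairs of gene and cell type. For dark against normal rearing over both genotypes, in GR-Con and in GR-KO, the 19 receptor kinases, arrestins and RGS proteins, which end G protein signals, gave 28 of 263, 12 of 259 and 27 of 288 pairs called. These are 10.6%, 4.63% and 9.38%, beside 5.40%, 2.25% and 3.66% of all pairs of gene and cell type in the same order. The 13 adenylyl cyclases and phospholipases C beta gave 14 of 156, 3 of 155 and 13 of 178 (8.97%, 1.94% and 7.30%), and all 14 calls over both genotypes were higher in DR. The 8 nicotinic chaperones and Ly6 modulators gave 11 of 118, 10 of 117 and 3 of 120 (9.32%, 8.55% and 2.50%), the last below the share of all genes. The 12 G protein alpha subunits gave 5 of 169, 1 of 169 and 6 of 193 (2.96%, 0.592% and 3.11%), each below the share of all genes. The 21 genes of transmitter synthesis, transport and breakdown, 14 of which were tested, gave 3 of 116, 3 of 116 and 4 of 118 (2.59%, 2.59% and 3.39%). The median log2 difference over both genotypes was 0.039, 0.110, -0.054, 0.105 and 0.017 in the same order, against -0.005 over all genes.

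For GR-KO against GR-Con over both rearings, in NR and in DR, and for the interaction, the receptor kinases, arrestins and RGS proteins gave 4 of 263, 5 of 285, 0 of 260 and 1 of 263 pairs, the cyclases and phospholipases 2 of 156, 3 of 174, 3 of 156 and 1 of 156, the nicotinic chaperones 1 of 118, 0 of 125, 1 of 117 and 0 of 118, the G protein alpha subunits 0 of 169, 1 of 187, 0 of 167 and 0 of 170, and the transmitter genes 0 of 116, 2 of 114, 0 of 114 and 0 of 120. Of all pairs of gene and cell type, 0.395%, 0.804%, 0.513% and 0.181% were called in the same order. Where a list had a count of 0 by edgeR's likelihood ratio test, the quasi-likelihood test also called 0, DESeq2 called at most 2, and between 6 and 30 pairs had an unadjusted p under 0.05.

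In each list the genes with the smallest adjusted p were as follows. Rgs4, an RGS protein of cortical neurons that shortens Gq and Gi signals, fell in DR in L2/3 over both genotypes, by a log2 difference of -1.12 (SE 0.17, adjusted p = 1.28e-08). Rgs8 rose in L6CT of DR GR-KO, at 1.17 (SE 0.19, adjusted p = 2.23e-07), and Rgs6 fell in VLMC of DR GR-KO, at -2.85 (SE 0.42, adjusted p = 9.26e-10), where the neuronal markers were lower too. Adcy8, a calcium-stimulated adenylyl cyclase, rose in Astro of NR GR-KO, at 1.72 (SE 0.18, adjusted p = 7.99e-18), where the neuronal markers were higher too, as given above, and their part was not tested. Adcy9 rose in L6IT of DR GR-KO, at 0.95 (SE 0.17, adjusted p = 6.32e-06), and Adcy1 rose in L4 of DR over both genotypes, at 0.57 (SE 0.11, adjusted p = 1.68e-05). In GR-Con, Lypd1, a Ly6 protein that binds nicotinic receptors, rose in DR in L2/3, at 1.56 (SE 0.19, adjusted p = 4.76e-14), and Lypd6 rose in Pvalb, at 0.91 (SE 0.15, adjusted p = 2.53e-06), while in GR-KO Tmem35a, the chaperone of the receptor made by Chrna7, fell in L6CT, at -1.45 (SE 0.32, adjusted p = 3.96e-04). Gnal, the alpha subunit that couples dopamine receptors to adenylyl cyclase, rose in L5IT of DR GR-Con, at 1.49 (SE 0.21, adjusted p = 9.25e-11), Gna14 rose in Pvalb in DR over both genotypes, at 1.82 (SE 0.38, adjusted p = 5.68e-04), and Gnao1 rose in L6CT, at 0.52 (SE 0.14, adjusted p = 0.00355). Slc22a3, a transporter that takes up monoamines, rose in L2/3 of DR GR-Con, at 2.67 (SE 0.43, adjusted p = 8.58e-08). Tph2, the enzyme of serotonin synthesis in neurons, was lower in L5PT of NR GR-KO, at -1.88 (SE 0.42, adjusted p = 0.00222), where the female library held 59 nuclei. The Tph2 call was lost in the quasi-likelihood test (adjusted p = 0.417) and in 2 of the 4 fits without 1 library, with an adjusted p of up to 0.935 without the NR GR-Con female library, and DESeq2 gave it no adjusted p. Tmem35a lost its call in the quasi-likelihood test (adjusted p = 0.0744) and without the DR GR-KO female library (adjusted p = 0.0978), and Adcy9 in the quasi-likelihood test alone (adjusted p = 0.0505). The other genes of these lists named here kept their calls in the quasi-likelihood test and without any 1 library.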

How the data were processed

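V1 nuclei of 8 libraries were profiled by 10x 3′ snRNA-seq. Per the study's methods and processing notes, the authors made UMI counts with Cell Ranger 8.0.1 on an mm10 annotation with eGFP added, removed nuclei with very few or very many counts, removed doublets with DoubletFinder and clustered with Seurat 5.3.0. The deposited table holds raw UMI counts, with a cell type, a library name and the percent of mitochondrial UMIs per nucleus. The mitochondrial percent was not used in the levels or tests.

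Here counts were summed per library and deposited cell type, and no further nuclei or doublets were removed. Group was read from the library name, and libraries with under 10 nuclei of a type were left out. Genes that passed filterByExpr were tested in edgeR 4.0.16 (R 4.3.3) with TMM factors and the likelihood ratio test, as in the study, with Benjamini-Hochberg adjustment over all genes of a cell type and a threshold of 0.05. The SE is the log2 difference divided by the root of the likelihood ratio statistic. Tests were tried first on simulated data. Levels used Python 3.11.15, numpy 2.4.6 and pandas 2.3.3, and a gene was called detected at a mean of 5 CPM in 1 type. Promoter windows come from RefSeq and gene positions from GENCODE.

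Named were every detected receptor with its leading type, values in full for the 3 highest of each family, and every called pair or, beyond 15 in a comparison, the 15 with the smallest adjusted p and each receptor called in 3 or more types. A few further called pairs were chosen after their values were seen. In the lists of other pathway genes, up to 3 genes with the smallest adjusted p were named. Some results for single genes are not reported here. Alternatives were the quasi-likelihood test, DESeq2 1.42.0, RLE factors, no filter, sex as a term, at least 50 nuclei, and leaving out each library, and, added after seeing the data, neuronal types only. The receptors, gene lists and tests were chosen with earlier results of these data known.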

Additional observations from a re-analysis of the deposited data

Results flagged for a closer look

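Among the level profiles of the 24 detected receptors in their leading type, 1 had a library far from the others. Htr2a in Lamp5 was at 116 CPM in the DR GR-Con male library and at 76.7 to 95.0 CPM in the other 7. With 24 profiles tested, chance gives such a gap in about 1 of 20.

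For 4 pairs the difference between GR-KO and GR-Con in NR differed from that in DR by the interaction test in edgeR. The NR minus DR difference was 2.23 on the log2 scale for Chrm3 in Oligo, 1.64 for Chrm3 in OPC, 1.53 for Htr1f in L2/3 and -1.35 for Hrh1 in L2/3. Beside the pairs in Oligo and OPC, the summed neuron markers were highest in NR GR-KO, and their part was not tested.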

How the results depend on the processing

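Counts of called receptor pairs moved with the test and with sex as a term. With the quasi-likelihood test, the count was 3 in NR and 0 in DR for genotype, 1 for genotype over both rearings, 8 in GR-Con and 9 in GR-KO for rearing, 14 for rearing over both genotypes, 0 for the interaction and 60 for the other pathway genes. DESeq2 gave 2 for genotype in NR and 18 for rearing in GR-KO. Sex as a term gave 22 for genotype in NR, 21 in DR, 54 for rearing in GR-KO, 14 for the interaction and 280 for the other pathway genes. In neuronal types alone, where fewer pairs are counted, the count was 5 for genotype in NR (1.63% against 0.298% of all neuronal pairs), 1 over both rearings (0.323% against 0.0753%) and 2 for the interaction (0.627% against 0.149%). For the other moves the cause was not tested.

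Leaving out 1 library at a time gave 7 to 30 calls for genotype in NR, 1 to 29 in DR and 2 to 5 over both rearings, 13 to 55 for rearing in GR-Con, 13 to 74 in GR-KO and 14 to 47 over both genotypes, 2 to 12 for the interaction, 100 to 281 for the other pathway genes, and 23 to 25 detected receptors. No named pair changed direction. Of the 90 named pairs, the quasi-likelihood test kept the call of 32 and ended that of 58, and DESeq2 kept 57 and ended 18. Without 1 library, 316 fits kept the call and 142 lost it. No filter ended 8 calls and sex as a term 2, while RLE factors and at least 50 nuclei ended 0. RLE factors shifted the median of all genes by at most 0.028 on the log2 scale. As a mean over nuclei, Htr4 was highest in Vip in place of L5NP. No paired analysis was possible by replicate number because the library names carry the sex of the animal and not the numbers of the labels. The libraries can be matched across groups by sex, and that fit is the one with sex as a term, in which Chrna9 in L5PT and Adrb1 in VLMC were not called.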

Other observations

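UMIs of several receptors were counted in cell types that had too few nuclei in some libraries for the 15 compared above. In microglia, measured in the 5 libraries with at least 10 of these nuclei, Adrb1 was at 64.6 ± 12.03 CPM (SD, n = 5), Hrh2 at 33.9 ± 7.09 and Chrm3 at 65.9 ± 30.7. In VLMC, in 7 libraries, Adra1a was at 173 ± 91.9 CPM (SD, n = 7) and the Gi-coupled Adra2a at 10.5 ± 6.01, and in endothelial cells Htr1f was at 80.7 ± 46.7 CPM (SD, n = 7). In chandelier cells (ChC), in 3 libraries, Htr1f was at 579 ± 20.3 CPM (SD, n = 3). The summed level of the 8 neuronal markers was 1072 to 2063 CPM in microglia, 1849 to 8848 in VLMC and 5154 to 7610 in endothelial cells, while Htr1f was at 714 CPM in L6CT neurons, and the part of neuronal RNA in these receptor levels was not tested. No test was made of these levels, and the SD includes differences between the groups.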
